A study of Homo sapiens with 18 samples.

Results

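Metallothioneins were followed in A549 cells, an established line of human lung adenocarcinoma, after exposure to Ludox silica nanoparticles (NPs). The members were the 10 genes MT1A, MT1B, MT1E, MT1F, MT1G, MT1H, MT1L, MT1M, MT1X and MT2A, found by the gene name that the scanner files give to each non-control probe. They were represented by 17 of the 41000 probes. Cells received SM30 NPs (9 nm in diameter, 3 h of recovery) or AS30 NPs (18 nm, 3 h or 22 h of recovery), with 3 arrays labelled A, B and C in each of these groups. Each treated group had 3 controls of its own, handled alike over the same recovery time but given no particles. All cultures, controls included, spent 2 h in serum-free medium and then recovered in medium with 10% serum. One cell line and one NP concentration were used, and no 22 h group exists for SM30.

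The arrays measured 1 colour, and every value is a log2 signal after quantile normalization over the 18 arrays, so a difference of 1 is a factor of 2 in signal. Levels are compared between arrays for the same probe and never between probes. Between 66% and 83.7% of spots on an array were positive and significant. The arrays came from 5 slides, and the SM30 set shared no slide with the AS30 set. The epithelial genes KRT8, KRT18, KRT19, EPCAM and CDH1, and AKR1C1 and ALDH1A1, which A549 cells are known to express, were all well above background on 18 arrays. Of 7 markers of other cell types (immune cells, endothelium and fibroblasts), CD14 and CD3E were well above background on 18 arrays and neither was called in a treated group, while PTPRC, PECAM1, CDH5, COL1A2 and DCN did not pass the filter on missing spots.

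Metallothioneins are small, cysteine-rich proteins that bind zinc and copper and also take up cadmium. Their genes lie in a cluster on chromosome 16 and are switched on by the zinc-sensing factor MTF1, which binds metal response elements in their promoters, and also by glucocorticoids and by oxidative stress. MTF1 also drives SLC30A1, which encodes the zinc exporter ZnT1 of the plasma membrane. In lung epithelium the family is known as a store for zinc and a buffer against toxic metals.

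Start regions from RefSeq (GRCh38.p14) were matched for 4 of the 10 members, MT1B, MT1H, MT1X and MT2A, and those of the other members were not used here. The 250 bases before each start are printed here, with SLC30A1 for comparison. At 22 h after AS30, log2 ratios to the same-letter control were below 0 for B and above 0 for A and C. This held for all 9 measured members, these 4 among them. Whether the start regions bear on that, or signal shared between their probes, was not tested. Capitals mark every match to the core letters of the metal response element, TGCACNC or TGCGCNC, on either strand. None of the matches overlapped another one.
MT2A, plus strand, chr16:56608334-56608583: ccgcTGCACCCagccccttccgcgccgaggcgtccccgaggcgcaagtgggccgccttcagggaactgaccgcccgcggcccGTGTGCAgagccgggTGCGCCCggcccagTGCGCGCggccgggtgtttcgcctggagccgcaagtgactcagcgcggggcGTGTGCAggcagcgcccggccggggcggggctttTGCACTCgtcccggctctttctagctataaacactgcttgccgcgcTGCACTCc
MT1B, plus strand, chr16:56651636-56651885: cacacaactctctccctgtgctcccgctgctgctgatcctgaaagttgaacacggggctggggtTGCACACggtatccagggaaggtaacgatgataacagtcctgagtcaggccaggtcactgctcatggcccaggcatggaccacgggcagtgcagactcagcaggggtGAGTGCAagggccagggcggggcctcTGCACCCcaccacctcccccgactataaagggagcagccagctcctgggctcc
MT1H, plus strand, chr16:56669564-56669813: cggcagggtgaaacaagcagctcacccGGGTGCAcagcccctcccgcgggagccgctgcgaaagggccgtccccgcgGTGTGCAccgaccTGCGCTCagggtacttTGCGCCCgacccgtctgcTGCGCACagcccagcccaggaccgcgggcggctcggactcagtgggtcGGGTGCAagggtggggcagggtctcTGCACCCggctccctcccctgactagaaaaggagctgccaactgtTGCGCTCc
MT1X, plus strand, chr16:56682220-56682469: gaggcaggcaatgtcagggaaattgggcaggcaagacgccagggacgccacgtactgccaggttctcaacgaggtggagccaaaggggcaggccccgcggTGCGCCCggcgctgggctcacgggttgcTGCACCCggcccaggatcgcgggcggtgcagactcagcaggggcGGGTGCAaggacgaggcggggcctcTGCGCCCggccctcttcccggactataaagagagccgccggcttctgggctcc
SLC30A1, minus strand, chr1:211579162-211579411: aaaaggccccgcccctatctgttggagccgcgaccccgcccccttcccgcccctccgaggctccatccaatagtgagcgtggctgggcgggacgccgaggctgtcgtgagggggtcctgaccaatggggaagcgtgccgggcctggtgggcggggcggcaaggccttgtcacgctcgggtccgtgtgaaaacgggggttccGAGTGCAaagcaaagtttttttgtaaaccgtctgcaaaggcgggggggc

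MT1H held 8 matches, MT2A 7, MT1X 4 and MT1B 3, and SLC30A1 held 1. Among 35116 RefSeq windows of the same length, 24.8% held at least 1 match, 1.58% at least 3, 0.37% at least 4 and 0.0313% at least 7. All 4 metallothionein windows held a match on the gene's own strand that ended 47 or 48 bases before the start, and a match on the opposite strand that ended 72, 73 or 82 bases before it. These are matches of letters, and no binding was measured.

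**Figure D1:**
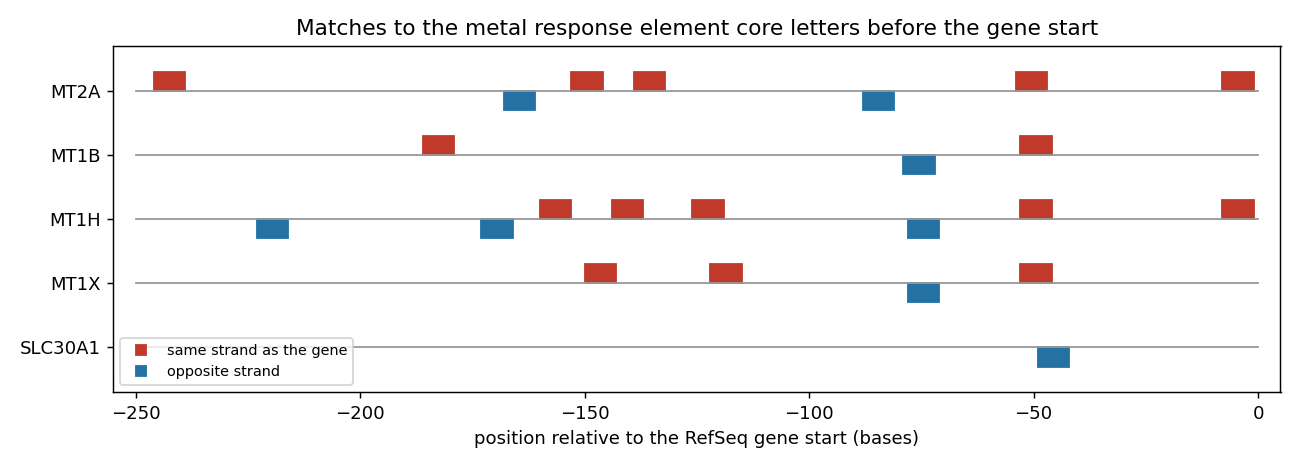
Map of the matches to TGCACNC or TGCGCNC in the 250 bases before the RefSeq start of 4 metallothionein genes and SLC30A1. The x axis gives the position in bases before the start, boxes above a line are matches on the gene's strand and boxes below it are matches on the opposite strand. The 4 metallothionein genes hold 3 to 8 matches and SLC30A1 holds 1.

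The 17 probes lay within the cluster on chromosome 16 of build hg18, from MT2A at chr16:55200782-55200841 to MT1X at chr16:55275411-55275470. The listed intervals of 14 probes were 60 bases long, and those of MT1A (604 bases), MT1G (648 bases) and MT1H (386 bases) were longer. The MT1H probe used here is listed at chr16:55228291-55228350, between the probes of MT1M and MT1A, while the other MT1H probe is listed at chr16:55261957-55262342, so its target is uncertain. The family's coding sequences are nearly alike, the files give no probe sequence, and signal from one member on the probe of another was not tested. Whether a probe lies in an untranslated region is not given in the files.

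The filter on missing spots kept 14 of the 17 probes and 9 of the 10 genes. All 14 were well above background on all 18 arrays, and none was saturated. MT1M was the member without a value: its single probe was well above background on 0 arrays and positive and significant on 8. The second probe of MT1E was positive and significant on 0 arrays and the second probe of MT1L on 3. Where a gene had several probes, the brightest one stands for it. The 2 other MT2A probes had mean ratios of 0.03 and 0.05 after SM30, -0.42 and -0.39 after AS30 at 3 h, and 0.26 and 0.35 at 22 h, and none was called. The second MT1G probe had 0.12, -0.56 and 0.03 in these 3 comparisons, the second MT1H probe 0.26, -0.57 and 0.27, and the second MT1X probe 0.29, -0.54 and 0.36, and none was called.

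MT2A, the most widely expressed member in human tissues, had levels of 15.50, 15.33 and 15.28 in the SM30 controls and 15.43, 15.39 and 15.57 after SM30. Its 3 h AS30 controls were at 15.56, 15.83 and 15.16, and the AS30 arrays at 15.40, 14.95 and 14.92. At 22 h the controls were at 15.24, 15.26 and 14.80, and the AS30 arrays at 15.86, 14.91 and 15.62. Ordered by mean, the 6 groups ran from 15.52 ± 0.337 (SD, n = 3) in the 3 h AS30 controls to 15.09 ± 0.269 (SD, n = 3) after AS30 at 3 h, and neighbouring groups in that order overlapped, except the SM30 controls and the 22 h AS30 controls. The highest of the 18 levels was on a 22 h AS30 array and the lowest on a 22 h control array.

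MT1A, another zinc- and cadmium-binding member, had the mean ratio nearest 0 of the 9 genes in each of the 3 comparisons with controls. It was at 13.97, 13.86 and 13.83 in the SM30 controls and 14.02, 13.89 and 13.78 after SM30. In the AS30 set at 3 h it was at 14.09, 14.50 and 14.11 in the controls and 14.14, 14.02 and 14.01 after AS30. At 22 h the controls were at 14.03, 14.14 and 13.69 and the AS30 arrays at 14.23, 13.57 and 14.01. Its treated and control arrays overlapped in all 3 comparisons.

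MT1L, which is annotated as a pseudogene in some releases and as a gene in others, was at 12.89, 12.67 and 12.81 in the SM30 controls and 12.93, 13.03 and 13.00 after SM30. Its 3 h AS30 controls were at 13.31, 13.53 and 12.88 and the AS30 arrays at 13.17, 12.62 and 12.66. At 22 h the controls were at 12.86, 13.09 and 12.63 and the AS30 arrays at 13.75, 12.57 and 13.51. MT1L thus had little spread within the SM30 set and the most within the 22 h AS30 group, where its SD was 0.624.

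**Figure D2:**
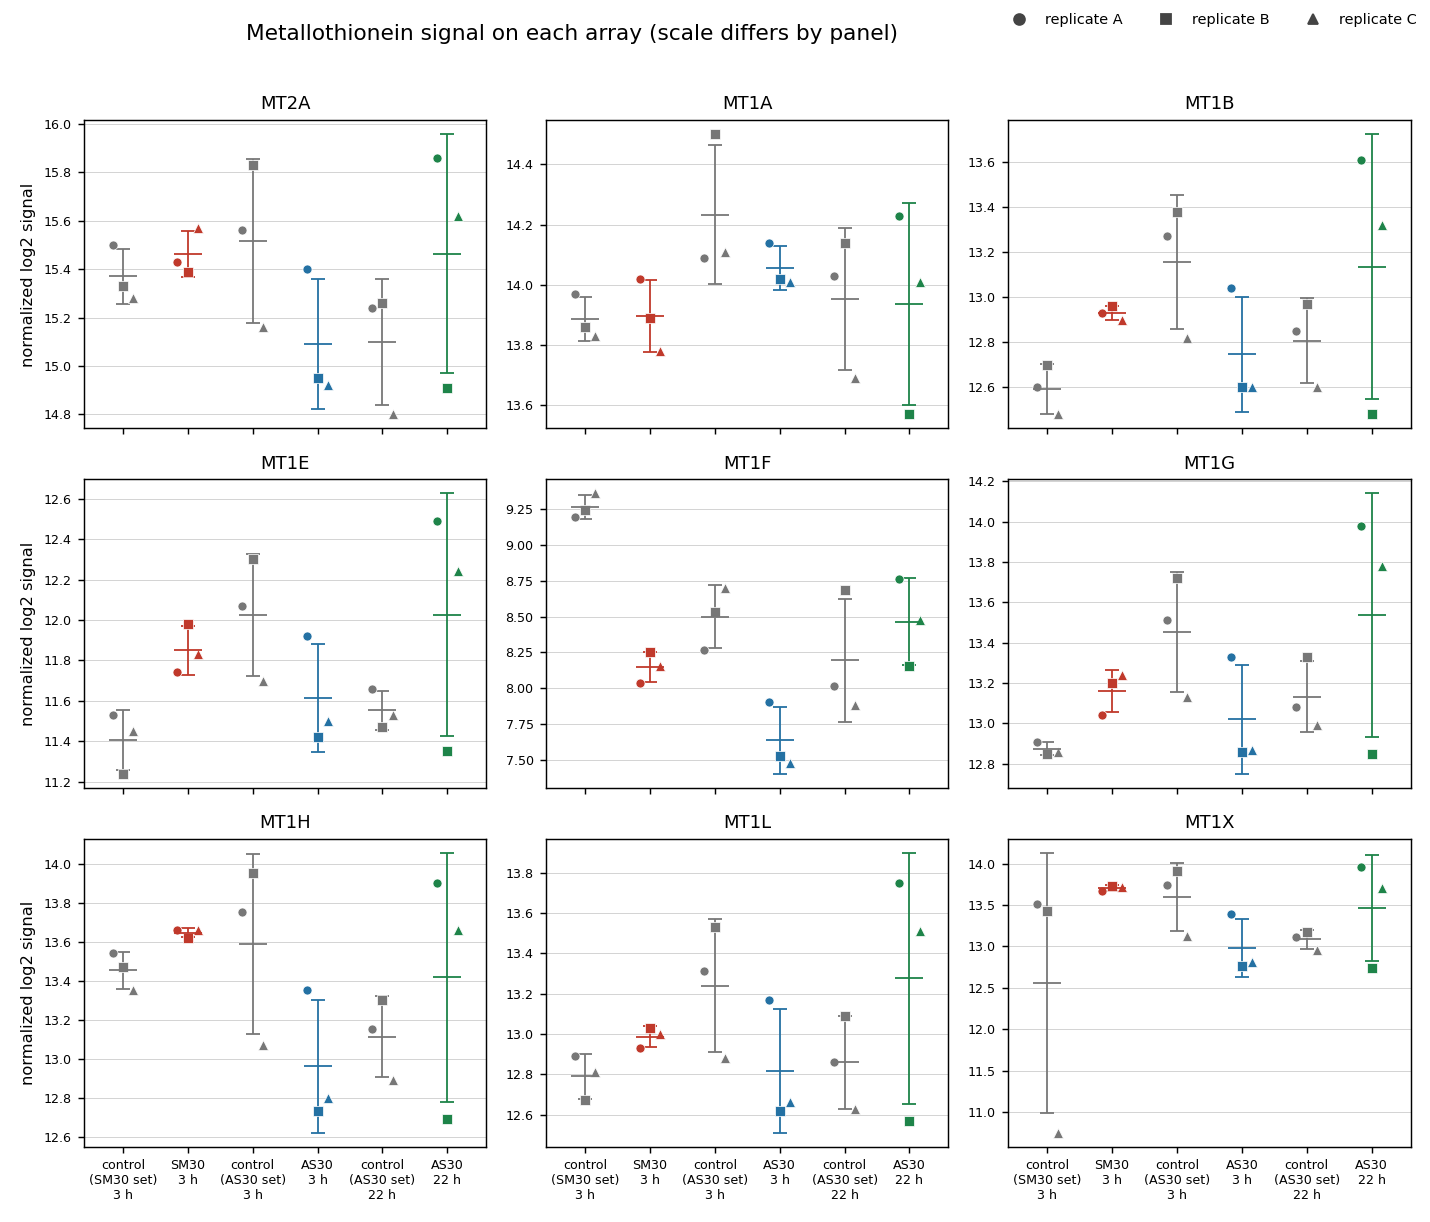
Normalized log2 signal (y axis, scale set per gene) of the 9 measured metallothionein genes on each of the 18 arrays, by group (x axis). Points are arrays, with the shape giving the replicate letter, and the bars are the mean and SD of 3 arrays. MT1F sits lower after SM30 than in its controls, and the 22 h AS30 arrays of replicate B lie below replicates A and C for all 9 genes.

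The first comparison asked how the family responded to SM30 at 3 h. MT1F was lower on every SM30 array than on every SM30 control array, while 8 of the 9 genes had a mean log2 ratio above 0 and none of those 8 was called. The MT1F controls were at 9.20, 9.25 and 9.36 and the SM30 arrays at 8.04, 8.25 and 8.15, which do not overlap. MT1F, a member of the MT1 group whose product also binds zinc and cadmium, fell by 1.12 on the log2 scale (SE 0.251), a 2.17-fold difference, with ratios of -1.16, -0.99 and -1.21 in pairs A, B and C. The limma moderated test, adjusted over 28664 probes by the Benjamini-Hochberg method, gave an adjusted p of 0.034 (95% interval -1.69 to -0.55). Thus 1 of 9 genes was called, and it was lower, against 7.49% of all probes called in either direction and 3.13% called lower. Both arrays of pair A lay on 1 slide and gave -1.16, while the SM30 arrays of pairs B and C lay on another slide than the controls. With normexp background correction the MT1F value was -0.594 (adjusted p = 0.029), and with all spots kept the adjusted p was 0.066. Without pair A, B or C the value was -1.10, -1.18 or -1.08. Its adjusted p was then 0.13, 0.14 or 0.18, so the call was lost. These 3 fits called 1.98%, 1.01% and 1.04% of all probes, against 7.49% with all pairs. The arrays carried RNA of whole cultures, in which fewer expressing cells and less RNA per cell cannot be told apart.

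The other 8 genes had SM30 values from 0.01 for MT1A to 1.14 for MT1X, and their adjusted p ranged from 0.21 to 0.98. MT1E was at 11.53, 11.24 and 11.45 in the controls and 11.74, 11.98 and 11.83 after SM30, a mean ratio of 0.44 (95% interval -0.06 to 0.94) with an adjusted p of 0.25. MT1B was at 12.60, 12.70 and 12.48 in the controls and 12.93, 12.96 and 12.90 after SM30, a mean ratio of 0.33 with an adjusted p of 0.42. For 6 of the 9 genes, MT1B, MT1E, MT1G, MT1H, MT1L and MT1X, every SM30 array lay above every control array, and for MT1F every one lay below. On the second MT1G probe the groups overlapped. Such separation of groups was found for 43% of all probes measured on these 6 arrays. The median of the 9 genes was 0.20, against -0.05 over all probes tested.

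The value of MT1X rests on 1 spot. Its brighter probe was at 13.51, 13.43 and 10.75 in the SM30 controls and 13.67, 13.73 and 13.72 after SM30, which gave ratios of 0.15, 0.30 and 2.97. The other MT1X probe shares 48 bases of its listed interval and was at 13.04, 13.00 and 12.78 in the controls, with ratios of 0.21 in pair A and 0.37 in pair C. Its pair B ratio is missing because the spot on the SM30 array was marked as an outlier, and the fit used the pairs that remained. The estimate was 1.14 (SE 0.512, adjusted p = 0.21) on the first probe and 0.29 (SE 0.322, adjusted p = 0.63) on the second. Without pair C the first probe gave 0.226. The spot of control C was not marked by the software, and all contrasts that use this probe carry a wider error for it.

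**Figure D3:**
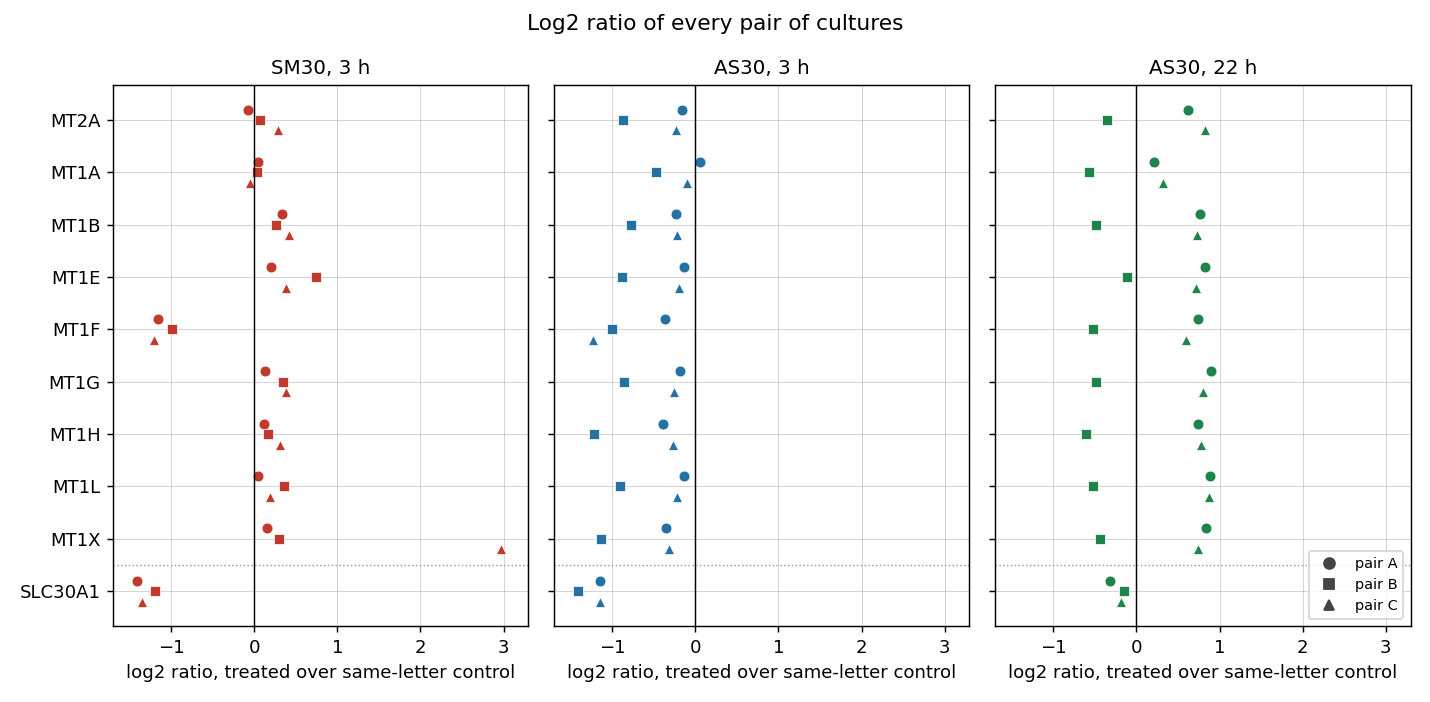
Log2 ratio of treated over same-letter control (x axis) for the 9 measured metallothionein genes and SLC30A1 (y axis), for SM30 at 3 h, AS30 at 3 h and AS30 at 22 h. Each point is 1 pair of cultures, with the shape giving the letter. The MT1F and SLC30A1 ratios after SM30 are all below -0.9, the point at 2.97 is the MT1X pair described above, and at 22 h pair B lies below 0 and pairs A and C above 0 for all 9 metallothionein genes.

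The second comparison asked for the same response to the larger AS30 NPs at 3 h. All 9 genes had a mean log2 ratio below 0, from -0.18 for MT1A to -0.865 for MT1F, and 0 of 9 were called by limma, against 2.52% of all probes, 1.01% called lower. At an unadjusted p under 0.05, 1 of the 9 genes (MT1F) passed, against 6964 of 28596 probes. MT1F was at 8.26, 8.53 and 8.70 in the controls and 7.90, 7.53 and 7.48 after AS30, which do not overlap, and its ratio of -0.865 (SE 0.251, 95% interval -1.44 to -0.29) had an adjusted p of 0.098. MT1F was past the threshold without pairing by letter (adjusted p = 0.031), with slide as a random block (-0.809, adjusted p = 0.013) and over the mean of the controls (adjusted p = 0.002), settings under which 4.59%, 13.8% and 34.5% of all probes were called. With slide as a fixed block it was -1.53 and not past the threshold, and with normexp background correction -0.413. The slide shift in that block came only from the 22 h controls A and B (8.02 and 8.68), 1 array on each slide. Treated and control arrays of this comparison lay on different slides, so no within-slide ratio exists.

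Pair B carried the lowest AS30 ratio at 3 h for 8 of the 9 genes, MT1F being the exception. MT1H was at 13.75, 13.95 and 13.07 in the controls and 13.35, 12.73 and 12.80 after AS30, with ratios of -0.40, -1.22 and -0.27 in pairs A, B and C and a mean of -0.629 (95% interval -1.27 to 0.01, adjusted p = 0.21). Its other probe gave -0.574 (adjusted p = 0.22). MT2A had ratios of -0.16, -0.88 and -0.24, a mean of -0.424 with an adjusted p of 0.29. The median of the 9 genes was -0.424, against 0.01 over all probes, and it was -0.222 without pair B. The groups of MT1F did not overlap, those of the other 8 genes did, and 23.8% of all probes measured on these 6 arrays had groups that did not overlap.

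The third comparison followed AS30 to 22 h of recovery. The mean log2 ratios ran from -0.01 for MT1A to 0.473 for MT1E, 8 of the 9 lay above 0, and 0 of 9 were called by limma, against 3.58% of all probes, 2.54% called higher. At an unadjusted p under 0.05, 0 of the 9 passed, against 6452 of 28155 probes. The 3 pairs did not move alike. In pair A the 9 ratios ran from 0.209 to 0.901, in pair C from 0.322 to 0.876, and in pair B from -0.609 to -0.117. MT1G, for example, had ratios of 0.90, -0.48 and 0.80, with levels of 13.98, 12.85 and 13.78 after AS30 and 13.08, 13.33 and 12.99 in the controls. The median SD between pairs over the 9 genes was 0.711 at 22 h, 0.414 after AS30 at 3 h and 0.136 after SM30, while over all probes it was 0.277, 0.279 and 0.204. So the family spread more between the 22 h pairs than the typical probe, with pair B below 0 and pairs A and C above 0 in each of the 9 genes. The AS30 array of pair B had 70.9% of spots positive and significant, against 76.2% in A and 79.3% in C. Signal shared between the 9 probes was not tested, so they may not be separate observations of a pair.

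Without pair B the 22 h median of the 9 genes rose from 0.365 to 0.758. MT1G was then at 0.849 with an adjusted p of 0.049, against 4.29% of all probes called, and the other 8 genes had values from 0.266 to 0.879 and adjusted p from 0.053 to 0.51. Both arrays of pair C lay on 1 slide and gave ratios of 0.322 for MT1A to 0.876 for MT1L. The second MT1G probe had ratios of 0.50, -0.60 and 0.19 at 22 h and differed from the first by up to 0.605, whereas the probes of MT1H differed by at most 0.157 and those of MT2A by at most 0.311.

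The responses were then set against each other. For SM30 minus AS30 at 3 h, the difference was above 0 for 8 of the 9 genes, with a median of 0.722, and 0 of 9 were called, against 0.014% of all probes (4 of 28595). The genes MT1E (0.851, 95% interval 0.141 to 1.56, adjusted p = 0.29) and MT1X (1.75, adjusted p = 0.32) passed at an unadjusted p under 0.05. So did 4176 of 28595 probes. Without SM30 pair C, MT1X was at 0.833. MT1F had a difference of -0.256 (95% interval -1.07 to 0.555, adjusted p = 0.76), and with slide as a fixed block it was 0.302. The fixed-block value rests on SM30 array A and on the 22 h controls A and B of the AS30 set. For the AS30 response at 22 h minus that at 3 h, all 9 differences were above 0, from 0.163 for MT1A to 1.14 for MT1F, with a median of 0.838. None of the 9 was called, against 0.0285% of all probes. At an unadjusted p under 0.05, 4735 of 28086 probes passed, and 4 of the 9 genes. They were MT1F (adjusted p = 0.2), MT1E (0.884, adjusted p = 0.22), MT2A (0.789, adjusted p = 0.28) and MT1H (0.931, adjusted p = 0.29). These 2 differences share the 3 h AS30 ratios. An exact permutation test of 3 against 3 ratios cannot go below 0.1 and was not run.

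**Figure D4:**
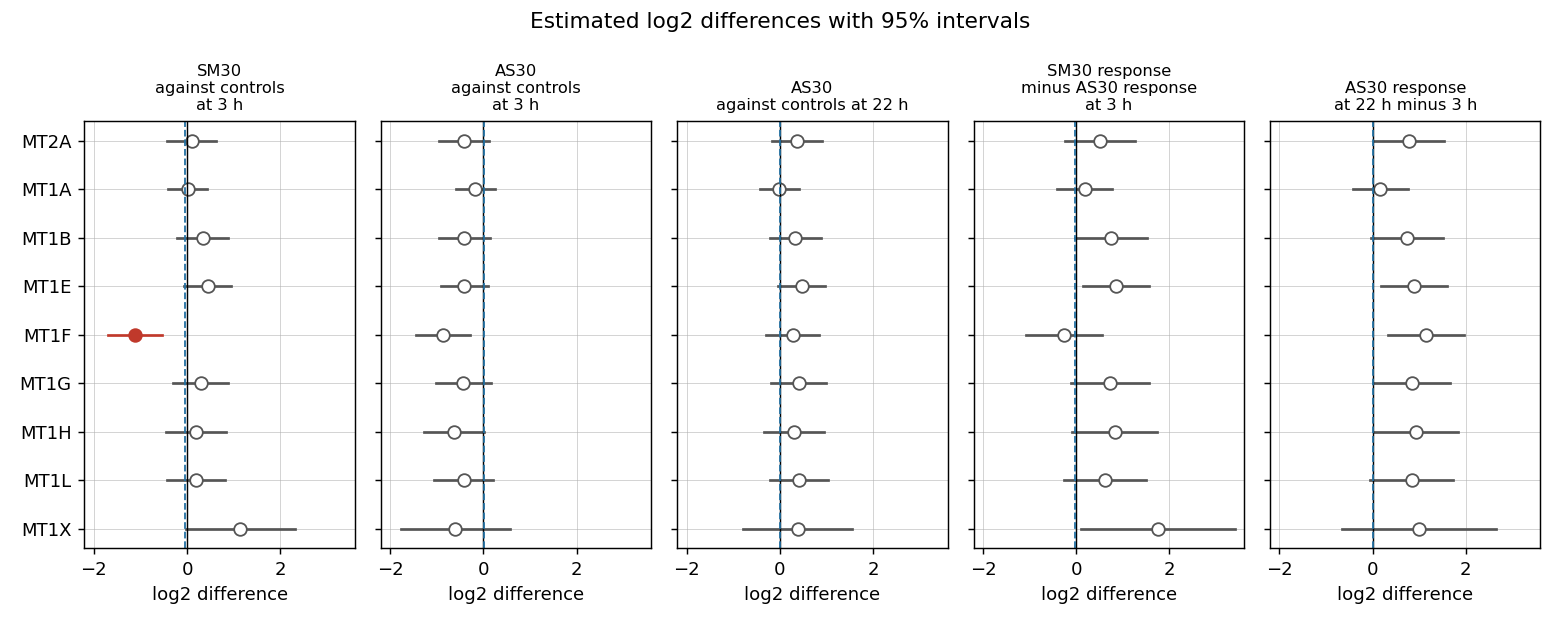
Estimated log2 difference (x axis) with its 95% interval for the 9 measured metallothionein genes in 5 contrasts. The filled point is the 1 value past an adjusted p of 0.05, open points did not pass, and the dashed line is the median of all probes tested. MT1F after SM30 is the filled point, at -1.12.

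The untreated cultures differed as well. MT1F was higher in the SM30 controls than in the 3 h AS30 controls by 0.769 (SE 0.206, adjusted p = 0.014 in limma), while the other 8 genes had differences from -1.03 to -0.138 and were not called. The -1.03 is that of MT1X and rests on the low spot of control C: it was -0.121 without that array and -0.212 on the other probe. This 1 of 9 stands against 26.8% of all probes called between the 2 control sets and 15.6% called higher. The 2 sets shared no slide, so set and slide cannot be told apart. Without control A of the AS30 set the adjusted p of MT1F was 0.055, and with slide as a random block MT1B, MT1E and MT1G were called as well, at -0.567, -0.635 and -0.585, against 33.9% of all probes called under that setting. The second MT1G probe had a difference of 0.08, against -0.579 on the first. Between the AS30 controls at 22 h and 3 h all 9 genes had values below 0, from -0.505 to -0.279, and 0 were called by limma, against 1.3% of all probes. None of the 9 passed at an unadjusted p under 0.05, against 4210 of 28179 probes.

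Over the 6 groups, MT1F ran from 9.27 ± 0.0843 in the SM30 controls, through 8.50 ± 0.221 in the 3 h AS30 controls, 8.47 ± 0.303 after AS30 at 22 h, 8.19 ± 0.431 in the 22 h controls and 8.15 ± 0.108 after SM30, to 7.63 ± 0.232 after AS30 at 3 h (mean ± SD, n = 3 each). The highest group did not overlap with the next, and the lowest did not overlap with SM30. The other neighbours in this order overlapped.

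Of the zinc transporters and MTF1, 18 of 19 listed genes were measured. After SM30 at 3 h 1 fell and 0 rose, against 3.13% of all probes called lower. After AS30 at 3 h 1 fell and 0 rose, against 1.01% called lower. At 22 h 0 were called by limma, against 3.58% of all probes. At an unadjusted p under 0.05, 3 genes (SLC30A6, SLC39A1 and SLC39A8) passed at 22 h, against 6452 of 28155 probes. The gene that fell was SLC30A1 in both cases. The medians of the list were -0.02, -0.09 and 0.07 in the 3 comparisons, against -0.05, 0.01 and -0.005 over all probes.

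SLC30A1 was at 11.11, 10.97 and 10.90 in the SM30 controls and 9.70, 9.77 and 9.55 after SM30. In the AS30 set at 3 h it was at 11.08, 11.06 and 10.99 in the controls and 9.93, 9.66 and 9.84 after AS30. No treated array reached the level of any control array in either set. The log2 ratio was -1.32 (SE 0.108, adjusted p = 0.001) after SM30 and -1.23 (SE 0.108, adjusted p = 0.0049) after AS30, and a second probe gave -1.50 (adjusted p = 0.0023) and -1.43 (adjusted p = 0.008). The difference between the particles was -0.09 (95% interval -0.433 to 0.263, adjusted p = 0.82). At 22 h it was at 10.53, 10.62 and 10.48 in the controls and 10.21, 10.47 and 10.29 after AS30, a ratio of -0.22 (adjusted p = 0.26). The change of the AS30 response from 3 h to 22 h was 1.01 (SE 0.153, adjusted p = 0.079). It was past the threshold without pairing by letter (adjusted p = 0.028) and in 4 other alternatives. Its controls fell by 0.503 between 3 h and 22 h (adjusted p = 0.038). This fall did not pass with slide as a fixed block, where only 22 h control A shares a slide with the 3 h controls. Nor did it pass in 5 of the 6 fits that left out 1 control (adjusted p from 0.061 to 0.1). It passed without control C of the 3 h set (adjusted p = 0.027).

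MTF1 had levels of 11.44, 11.14 and 11.08 in the SM30 controls and 11.49, 11.67 and 11.62 after SM30, which separate by a small margin. The ratio was 0.37 (95% interval 0.08 to 0.66) with an adjusted p of 0.11. Pair A, with both arrays on 1 slide, gave 0.047. Pairs B and C, whose SM30 arrays lay on another slide than their controls, gave 0.526 and 0.545. After AS30 the ratio was -0.09 at 3 h (adjusted p = 0.68) and -0.02 at 22 h (adjusted p = 0.94). With slide as a random block MTF1 was past the threshold after SM30 (0.385, adjusted p = 0.048). Over the mean of the controls it was too (adjusted p = 0.0081). These settings called 10.7% and 33% of all probes. In 11 of the 13 alternatives that kept all pairs, and on leaving out any 1 pair, MTF1 stayed short of the threshold.

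**Figure D5:**
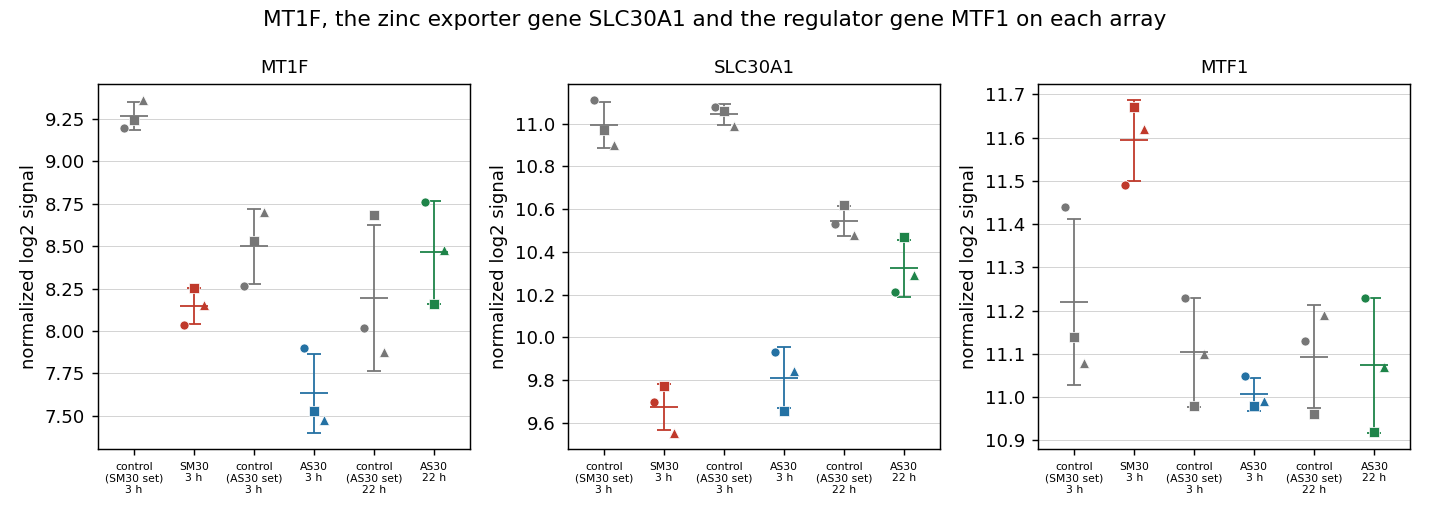
Normalized log2 signal (y axis, scale set per gene) of MT1F, SLC30A1 and MTF1 on each of the 18 arrays, by group (x axis). Points are arrays (circle A, square B, triangle C) and bars are the mean and SD of 3 arrays. SLC30A1 lies between 9.55 and 9.93 on the 6 treated arrays at 3 h and between 10.90 and 11.11 on their 6 controls.

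Glucocorticoid-responsive genes, listed because steroids also raise metallothioneins, had 11 of 12 members measured. After SM30 4 of the 11 rose and 0 fell, against 4.35% of all probes called higher. They were ANGPTL4, an inhibitor of lipoprotein lipase (1.73, adjusted p = 0.022), KLF9, a transcriptional repressor (1.44, adjusted p = 0.0095), TSC22D3, which encodes GILZ (1.09, adjusted p = 0.047), and SGK1, a kinase (0.824, adjusted p = 0.039). After AS30 at 3 h KLF9 (1.39, adjusted p = 0.025) and ERRFI1, a feedback inhibitor of EGFR (0.655, adjusted p = 0.049), rose and 0 fell, against 1.5% of all probes called higher. At 22 h 0 were called by limma, against 3.58% of all probes. At an unadjusted p under 0.05, 3 passed, against 6452 of 28155 probes. The list medians were -0.01, 0.25 and -0.08, against -0.05, 0.01 and -0.005 over all probes. With normexp background correction TSC22D3 was at 0.389 after SM30 (adjusted p = 0.15). Of 13 alternatives that kept all pairs, 6 ended the SM30 call of TSC22D3 and 4 that of SGK1. For ANGPTL4 and KLF9 it was 1 each. Leaving out any 1 SM30 pair, or slide as a fixed block, ended the SM30 calls of these 4 genes. With that block the SM30 value rests on array A alone. Without SM30 pair A, B or C, 1.98%, 1.01% and 1.04% of all probes were called, against 7.49% with all pairs. The AS30 call of KLF9 was lost without pair A or B, with all spots kept and with slide as a fixed block (adjusted p up to 0.69). That of ERRFI1 was lost without pair A or B and in 6 of 13 other alternatives (adjusted p up to 0.9), and a second ERRFI1 probe was not called (0.632, adjusted p = 0.31). Without AS30 pair A or B, 0.716% and 0.285% of all probes were called at 3 h, against 2.52% with all pairs.

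Oxidative and heavy-metal stress genes had 13 of 14 members measured and 1 call in the 3 comparisons, HSPA1A, an inducible HSP70 gene, at -0.713 after SM30 (adjusted p = 0.022). Of all probes, 3.13% were called lower after SM30. The other 2 HSPA1A probes were at -0.494 and -0.671 and were not called, and its signal cannot be told from that of its near copy HSPA1B. Of the copper and iron genes 14 of 15 were measured, and SLC31A2, a copper transporter of the endosome, rose after SM30 (0.701, adjusted p = 0.01) and after AS30 at 22 h (0.732, adjusted p = 0.021), with 0.503 after AS30 at 3 h (adjusted p = 0.057). It was the 1 call among the 14 after SM30 and at 22 h, against 4.35% and 2.54% of all probes called higher. Of the epithelial markers, KRT19 rose after AS30 at 22 h (1.21, adjusted p = 0.023), against the same 2.54% of all probes. Without pairing by letter its adjusted p was 0.13. With slide as a fixed block the calls of HSPA1A, SLC31A2 and KRT19 were lost. That block leaves only array A of SM30, and only control C at 22 h, to compare on a shared slide. Leaving out any 1 pair ended the SM30 calls of HSPA1A and SLC31A2, leaving out pair A or C ended the 22 h calls of SLC31A2 and KRT19, and HSPA1A was lost in 5 of 13 other alternatives. Those SM30 fits without 1 pair called 1.01% to 1.98% of all probes, against 7.49% with all pairs. The 22 h fits without pair A or C called 0.00716% and 0.684%, against 3.58%. Of the other metallothionein names, MT3, TESMIN and MT1JP were measured and 0 were called in the 3 comparisons, against 7.49%, 2.52% and 3.58% of all probes. MT3, the member known from brain, was at -0.581 after SM30 (adjusted p = 0.11), 0.284 after AS30 at 3 h (adjusted p = 0.39) and -0.315 at 22 h (adjusted p = 0.38).

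The genes whose 9 ratios ran most like the mean of the 9 members were ENC1 (r = 0.965), NR2F1 (r = 0.955), EFCAB14 (r = 0.954), TACC1 (r = 0.949) and SLAMF7 (r = 0.943), of 14039 candidate probes with a gene symbol. The member mean had ratios of -0.02, 0.14 and 0.41 after SM30, -0.21, -0.91 and -0.34 after AS30 at 3 h, and 0.73, -0.46 and 0.71 at 22 h. Its 0.41 in SM30 pair C includes the MT1X ratio of 2.97, which rests on 1 spot. The median of the 9 genes in that pair was 0.31. The correlations were taken with the mean that holds this spot. SLAMF7 had 0.92, 0.94 and 0.58 after SM30, 0.17, -0.97 and 0.05 after AS30 at 3 h, and 1.76, -0.69 and 1.75 at 22 h. After SM30, ENC1 had -0.744, -0.299 and -0.131 and NR2F1 had -0.846, -0.305 and -0.374. EFCAB14 had 0.269, 0.297 and 0.273 there, and TACC1 -0.0177, 0.219 and 0.262. A high r therefore did not mean a ratio of the same sign as the member mean. These correlations are a description over 9 ratios that share arrays, slides and normalization, and the genes were taken as the highest of all candidates.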

How the data were processed

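RNA of 18 A549 cultures was measured on 18 one-colour Agilent arrays. Per the file headers, the authors deposited spot intensities on a linear scale from Agilent Feature Extraction 10.5.1.1, with background-corrected processed signals and flags. The authors also deposited a table of linear intensities of the same arrays, quantile-normalized, with unmeasured spots left empty. Its log2 values correlated with those used here at r of 0.9999 or more and differed by a median of 0.13 to 0.15, and its column medians ran from 244 to 518, and columns not used numbered 0.

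Control spots were dropped, processed signals were log2-transformed and quantile-normalized, and spots that were not positive and significant or were feature outliers were set to missing. Replicate spots were averaged, and probes with over 33% missing values were removed, which left 28665 of 41000. Each treated array was set against its same-letter control. The 9 log2 ratios entered limma 3.58.1 (R 4.3.3) with a mean for each of 3 treatments and 6 residual degrees of freedom. Controls were compared in a model of all 18 arrays, with Benjamini-Hochberg adjustment over all probes and 0.05 as threshold. The number of arrays limits the precision. The letters are taken as biological replicates from the study's methods. The scripts were tested on simulated data.

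The probe with the highest mean signal stands for a gene. All members, SLC30A1 and MTF1 are named, and of each list the genes called against controls, up to 4 per comparison. The 5 most similar genes were those with the highest Pearson r over the 9 ratios. Symbols came from RefSeq accessions for 18772 of the kept probes, and otherwise from the file. The members and lists were chosen with earlier results of these data known. Alternatives covered scaling, background, filters, pairing, slide, spread model, probe choice and left-out pairs. Probe positions are those of the files (hg18).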

Additional observations from a re-analysis of the deposited data

How the results depend on the processing

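The pairing by letter comes from the study's division of treated by control arrays. Same-letter arrays deviated together with correlations from -0.091 to 0.48, so the letters do not by themselves show shared cultures. Without the replicate block, 1 gene was called after SM30, 1 (MT1F) after AS30 at 3 h, and 0 at 22 h and in both differences. Of all probes, 8.78%, 4.59% and 4.99% were called in these comparisons with controls. In the differences it was 0.0489% for SM30 minus AS30 and 0.245% for 22 h minus 3 h. With a replicate block on the controls, 1 gene was called between the 2 control sets and 0 between 22 h and 3 h. That block called 27.6% and 1.23% of all probes.

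The number of genes called after SM30, 1, was 0 with all spots kept (3.15% of all probes called) and 2 (MT1F and MT1X) over the mean of the controls (33%). After AS30 at 3 h it went from 0 to 1 without the block, with slide as a random block and over the mean of the controls, where 4.59%, 13.8% and 34.5% of all probes were called. Over the mean of the controls it was also 1 for SM30 minus AS30 and 1 for AS30 at 22 h minus 3 h, against 19% and 21% of all probes. That alternative leaves out the spread of the controls and called 9454 of all probes after SM30. Between the control sets it was 2 with all spots kept (MT1F and MT1M) and 4 with slide as a random block, against 17.9% and 33.9% of all probes. Leaving out 1 pair or array gave 0 genes after SM30, 0 after AS30 at 3 h and 0 to 1 at 22 h. Between the control sets it gave 0 to 2 (0 without control A of the AS30 set, and MT1E and MT1F without its control C). These fits called 1.01% to 1.98% of all probes after SM30 and 0.285% to 10.7% after AS30 at 3 h. They called 0.00716% to 4.29% at 22 h and 18.3% to 27% between the control sets. Under all alternatives together, the all-probe calls of 2146, 720 and 1008 ran from 289 to 9454 after SM30, 81 to 9885 after AS30 at 3 h and 2 to 8786 at 22 h. With slide as a fixed block the control sets could not be compared. Under that block SM30 was estimated from array A alone and AS30 at 22 h from its control C alone. The slide shift for AS30 at 3 h came from the 22 h controls A and B, 1 array on each slide. Of 1089 other values of single members under an alternative, 1062 kept their sign and side of the threshold, 11 changed sign without passing it, 11 newly passed and 5 no longer passed. The 22 h median of the 9 genes, 0.365, ran from 0.138 to 0.758 on leaving out 1 pair. MT1M was well above background on 0 arrays, which limits what can be said of it.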
